A study of Mus musculus with 20 samples.

Results

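Described here are 10 genes of the Bcl2 family of survival and death regulators, of 25246 genes in the count tables once mitochondrial genes and spike-ins are set aside. They were chosen by name for their roles. Bcl2, Mcl1 and Bcl2l1 are pro-survival, Bax and Bak1 are the effectors of death, and Bcl2l11, Bbc3, Bad, Bid and Bmf encode BH3-only proteins, which trigger it. The last 2 sets together are called the 7 pro-death members.

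As background, pro-survival members bind and restrain Bax and Bak1, which otherwise open the outer mitochondrial membrane and release cytochrome c. BH3-only proteins carry death signals by occupying the pro-survival members or by activating the effectors. In the thymus, Bim, the product of Bcl2l11, is known for the death of thymocytes that bind self antigen strongly, a signal that agonist-selected precursors receive and survive.

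The study sequenced single thymocytes that lack CD4 and CD8 and carry the αβ T cell receptor, the precursors of natural intraepithelial lymphocytes (IELPs). It used CEL-Seq2, which tags each mRNA at its 3′ end with a short random index (UMI), so that 1 tag stands for 1 transcript. GEO's design text calls the sorted cells NK1.1+, the paper NK1.1-. Cells were sorted by surface CD122, the receptor chain encoded by Il2rb, and by ZsGreen, which reports T-bet, into 4 populations. Of the 2 without ZsGreen, one lacks CD122 and one carries it, and they are called CD122- and CD122+ below. The other 2 carry CD122 with intermediate or high ZsGreen and are called T-bet int and T-bet high.

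All 3 mice were C57BL/6 and carried the ZsGreen reporter (TBGR). The TBGR mouse, with unmodified C-myc, was 4 weeks old, and each of its 4 populations filled 2 libraries of 96 wells. The TBGR C-myc fl/fl mouse, with floxed C-myc and no Cre named, was 2 weeks old. Its 8 libraries held 2 populations of 48 wells each, so that every population is in 4 libraries, and the populations of a library can be compared within it. The TBGR C-myc D/DCd4 mouse, in which Cre driven by Cd4 deletes floxed C-myc, was 2 weeks old and gave CD122- and CD122+ cells, in 2 libraries each. Cre driven by Cd4 is active from the CD4+CD8+ stage on and is not limited to IELPs. The paper writes of both a mouse and mice for these sorts, and in places gives the younger ones as 2 to 3 weeks old. The libraries are read here as 1 mouse a genotype. The genotype then cannot be told apart from the mouse, and libraries repeat the measurement within a mouse, so no p-value is given. The TBGR mouse also differs in age, so ratios of C-myc D/DCd4 to another mouse use only C-myc fl/fl. Orders of levels over all 3 mice are descriptions and do not separate age from genotype.

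Of 1920 wells sorted with a cell, 1413 held at least 2000 transcripts and are used below. The TBGR mouse gave 678 of 768 wells, C-myc fl/fl 470 of 768 and C-myc D/DCd4 265 of 384. The median cell held 5462 transcripts, and the 28 sums of a population in a library ran from 94268 to 775264 transcripts. Levels are counts per 10⁶ transcripts of such a sum (CPM), compared between genes as 3′ tags that are not scaled to gene length. Intervals are exact 95% intervals and cover counting error only.

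The αβ T cell markers, 5 of 6 in the files, summed to between 3127 and 6083 CPM in the 10 combinations of mouse and population, with Trbc1 the most abundant in each. Il2rb followed the CD122 gate, with 0 to 19.4 CPM in the 8 CD122- sums and 146 to 554 in the other 20 sums. Tbx21, the gene of T-bet, reached at most 13.4 CPM in the 16 sums of CD122- and CD122+ cells and lay between 12.4 and 214 in the T-bet int and high sums, so the gates overlap slightly at the mRNA level.

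Myc, the gene targeted in the C-myc D/DCd4 mouse, is given first. In the TBGR mouse it stood at 12.4 and 14.1 CPM in CD122- cells, 46.4 and 62.0 in CD122+ cells, 69.7 and 66.4 in T-bet int cells and 50.9 and 30 in T-bet high cells. In the C-myc fl/fl mouse, libraries 1 to 4 held 63.0, 14.0, 62.3 and 24.4 CPM in CD122- cells and 73.8, 125, 135 and 10.6 in CD122+ cells. Its T-bet int cells held 64.3, 70.3, 124 and 38.0, and its T-bet high cells 65.5, 95.2, 38.5 and 50.1. The C-myc D/DCd4 libraries held 16.7 and 30 CPM in CD122- cells and 44.5 and 9.96 in CD122+ cells. Set against the median of all genes tested, Myc in CD122+ cells was at a log2 ratio of -2.07 (-2.93 to -1.34) in C-myc D/DCd4 over C-myc fl/fl, with libraries that overlapped through C-myc fl/fl library 4. The 2 C-myc D/DCd4 libraries of this ratio held 14 and 4 Myc transcripts, so its size depends strongly on either. In CD122- cells the log2 ratio was -1.20 (-2.11 to -0.36), again with overlap. Myc transcripts were thus still found in both populations of the C-myc D/DCd4 mouse. Which exons are floxed is not given in the sources used, and a 3′ tag can still come from a transcript that lost other exons, so these counts do not measure the deletion.

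Some libraries stand apart. Genes with a predicted (Gm and a number) or clone name, 5986 in all and chiefly Gm10800, held much of the transcripts of the 2 younger mice. Their share was 55.7% in C-myc fl/fl CD122- cells and 35.3% in CD122+ cells, against 41.6% and 37.7% in C-myc D/DCd4, and 14.2% to 36.0% in the TBGR mouse. Within C-myc fl/fl the share was 62.7% in library 4 of CD122+ cells, against 30.2% to 32.5% in the other 3, and 42.4%, 64.4%, 50.1% and 68.6% in libraries 1 to 4 of CD122- cells. Library 4 of CD122+ cells was also the shallowest, with 22 passing cells and a median of 3298 transcripts. Its gene counts differed from those of libraries 1 to 3 by a chi-square per gene of 37.1 to 44.3, where those 3 differed from each other by 2.07 to 3.33. Library 4 also stood apart in T-bet int cells, by 16.8 to 24.0, and in T-bet high cells, by 10.4 to 16.6. In CD122- cells libraries 2 and 4 differed from 1 and 3 by 18.4 to 36.9, against 5.45 between 1 and 3. Member ratios and balances of C-myc D/DCd4 over C-myc fl/fl CD122+ cells are given with and without it, and also with these genes removed from both the minimum and the total (1168 of the 1413 cells then pass), a choice made after seeing the data. The libraries reuse 1 barcode set, and cells are numbered rather than named by barcode in the tables, so shared barcodes could not be counted.

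Bcl2 encodes the founding pro-survival member and was the most abundant of the 10, with 4719 of their transcripts, or 49.5%. Bcl2 was found in all 28 sums. Libraries 1 and 2 of the TBGR mouse held 845 and 459 CPM in CD122- cells, 530 and 836 in CD122+ cells, 670 and 549 in T-bet int cells and 647 and 518 in T-bet high cells. These 4 populations overlapped. In the C-myc fl/fl mouse, libraries 1 to 4 held 131, 293, 142 and 42.7 in CD122- cells and 373, 245, 595 and 159 in CD122+ cells. Its T-bet int cells held 232, 338, 218 and 158, and its T-bet high cells between 171 and 247. The C-myc D/DCd4 mouse held 271 and 261 in CD122- cells and 1070 and 1394 in CD122+ cells. Those last 2 libraries exceeded every other library of the series for Bcl2, and the pooled level of 1252 did not overlap with the next in order, the CD122+ cells of the TBGR mouse at 675. Each later neighbour in the order overlapped with the next, down to C-myc fl/fl CD122- cells at 159. The order depends in part on the predicted and clone-named genes. Without them the highest pooled level was 2071 in C-myc D/DCd4 CD122+ cells, and the next was 1025 in TBGR CD122- cells.

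The stretch upstream of the Bcl2 start is shown because Bcl2, Mcl1 and Bcl2l11 were high together in C-myc D/DCd4 CD122+ cells. It is from RefSeq on build GRCm38.p6, chr1:106714291-106714540 on the minus strand, with each GGGCGG (the GC box) or its complement in capitals.
Bcl2: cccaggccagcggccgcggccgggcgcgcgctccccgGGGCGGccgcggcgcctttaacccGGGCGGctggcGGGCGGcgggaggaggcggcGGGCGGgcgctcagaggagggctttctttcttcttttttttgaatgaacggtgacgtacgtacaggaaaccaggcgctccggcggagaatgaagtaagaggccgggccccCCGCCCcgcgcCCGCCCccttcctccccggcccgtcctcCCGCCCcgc
The 250 bases hold 7 GC boxes over both strands and are 74.8% G and C. They hold no CACGTG, the E-box letters that Myc and Max bind, which says only that these letters are not in this window.

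Mcl1 encodes a short-lived pro-survival protein and came second, with 2611 transcripts, or 27.4% of the 10. TBGR libraries held 341 and 358 CPM in CD122- cells, 350 and 347 in CD122+ cells, 270 and 326 in T-bet int cells and 356 and 313 in T-bet high cells. In C-myc fl/fl it was 160, 167, 209 and 61.0 in CD122- cells and 244, 236, 329 and 202 in CD122+ cells. T-bet int cells of that mouse held 210, 208, 162 and 177, and T-bet high cells between 166 and 204. C-myc D/DCd4 held 238 and 204 in CD122- cells and 461 and 505 in CD122+ cells. As for Bcl2, the last 2 libraries were above all others for Mcl1, and every other neighbour in the order of the 10 pooled levels overlapped with the next. The spread of Mcl1 was narrower than that of Bcl2, with pooled levels from 156 to 486.

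Bcl2l1, the gene of Bcl-xL, was sparse, with 106 transcripts in all and 25 of 28 sums above 0. Its highest pooled level was 26.5 CPM in TBGR CD122- cells and its lowest 5.23 in C-myc D/DCd4 CD122- cells, and every neighbour in the order overlapped with the next. In the CD122 step Bcl2l1 stood at 39.3 and 14.1 CPM in CD122- cells and 10.3 and 10.1 in CD122+ cells of the TBGR mouse, on 26 and 15 transcripts. In C-myc D/DCd4 it went the other way, with 6.69 and 4.29 CPM in CD122- cells and 12.7 and 17.4 in CD122+ cells, on 4 and 11 transcripts. Both are too few to be tested.

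**Figure D1:**
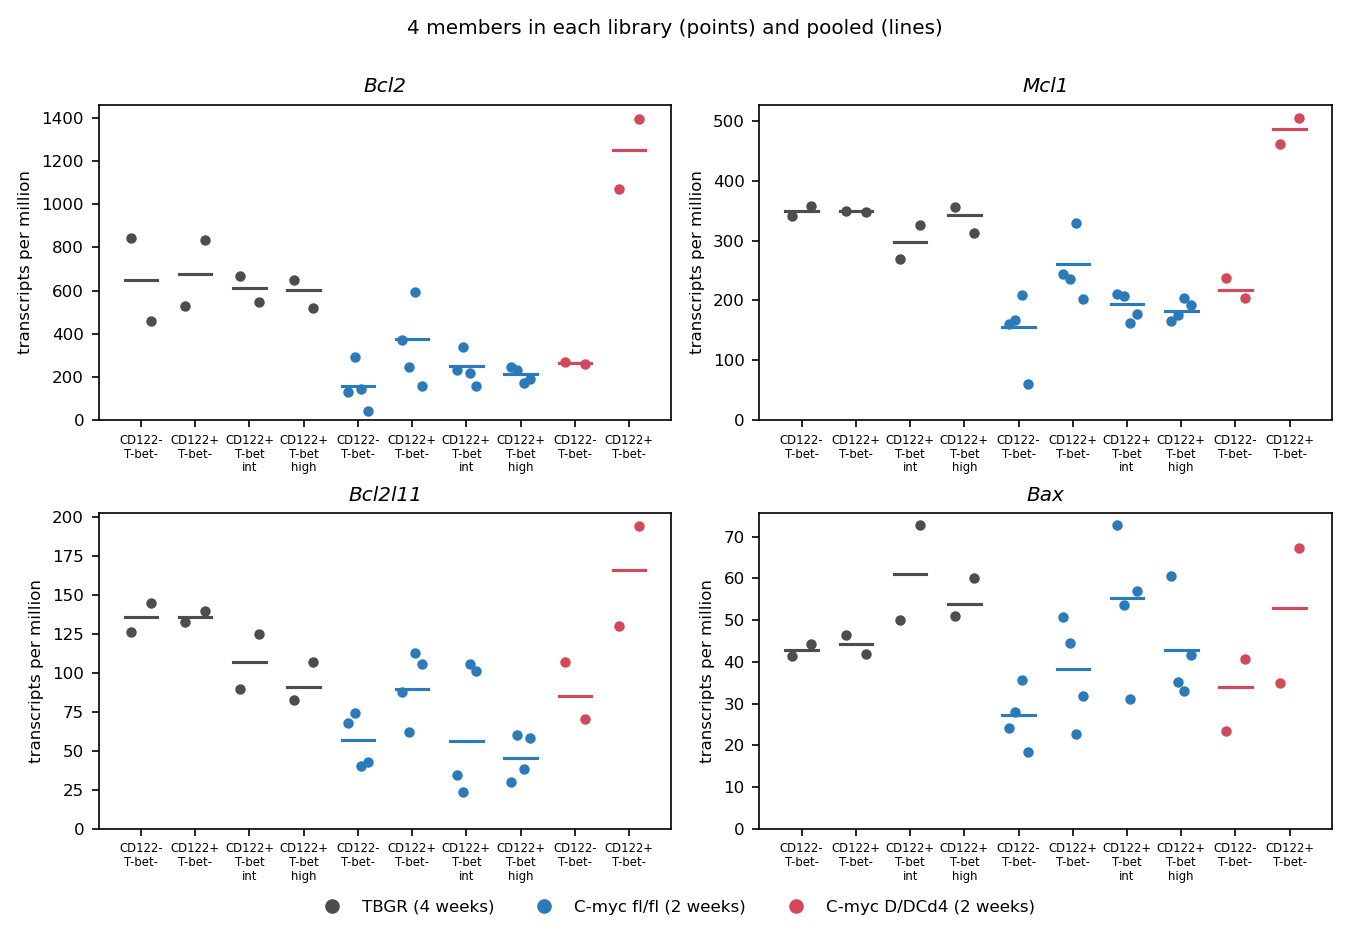
Bcl2, Mcl1, Bcl2l11 and Bax in CPM (vertical axis) by mouse and sorted population (horizontal axis), with each library as a point and the pooled level as a line. The 2 libraries of C-myc D/DCd4 CD122+ cells lie above the rest for Bcl2 and Mcl1 and within the range of other libraries for Bax.

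The plot of the 4 members by library also shows how far libraries of 1 population lie apart. The effector Bax, which forms pores in the mitochondrial membrane, was found in all 28 sums, with 416 transcripts. Its pooled levels ran from 27.2 CPM in C-myc fl/fl CD122- cells to 61.1 in TBGR T-bet int cells, with overlap between all neighbours in the order. Without predicted and clone-named genes both ends differ, from 55.7 in TBGR CD122+ cells to 89.2 in C-myc D/DCd4 CD122+ cells. With these genes kept, C-myc D/DCd4 CD122+ cells held 34.9 and 67.2 CPM of Bax, against 50.7, 44.5, 22.6 and 31.8 in C-myc fl/fl. These groups overlap, and the log2 ratio of Bax was 0.34 (-0.39 to 1.10).

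The 30 bases before the Bax start are shown because they hold the E-box, in capitals, 9 bases before the start. They are from RefSeq on GRCm38.p6, chr7:45466899-45466928 on the minus strand.
Bax: cctgcagcgagcgatgatgatCACGTGact
This was 1 of 2 matches to CACGTG in the 18 upstream windows of 250 bases that RefSeq gives for the 10 members, the other being 64 bases before the third start of Bbc3. Of all 32851 such windows, 6.02% hold it. A match is a description and not a site of binding.

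Bak1, the effector that resides on mitochondria, had 209 transcripts and was above 0 in 25 of 28 sums. TBGR CD122+ cells held the most, at 34.8 and 34.6 CPM, and T-bet int cells of the same mouse 15.2 and 17.4. The libraries of these 2 populations did not overlap. In C-myc fl/fl CD122- cells Bak1 was at 14.5, 0, 13.3 and 0 CPM, the lowest pooled level, where a count of 0 allows up to 14.0 CPM in library 2 and 18.3 in library 4.

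Bcl2l11 encodes Bim, the BH3-only protein that binds all pro-survival members, and held 913 transcripts, more than the other 6 pro-death members apart or 9.58% of the 10. TBGR libraries held 126 and 145 CPM in CD122- cells, 133 and 140 in CD122+ cells, 89.4 and 125 in T-bet int cells and 82.7 and 107 in T-bet high cells. Its CD122- and CD122+ libraries lay above its T-bet int and T-bet high libraries in each case. C-myc fl/fl held 67.9, 74.4, 40.0 and 42.7 in CD122- cells and 87.6, 62.3, 113 and 106 in CD122+ cells. Its T-bet int cells held 34.3, 23.4, 106 and 101, apart by libraries 1 and 2 against 3 and 4, and its T-bet high cells 30.2, 60.1, 38.5 and 58.4. C-myc D/DCd4 held 107 and 70.7 in CD122- cells and 130 and 194 in CD122+ cells. Bcl2l11 was thus highest where Bcl2 was highest, at a pooled 166 CPM, though here the libraries overlapped with the next in the order, TBGR CD122+ cells at 136. Without predicted and clone-named genes the pooled level was 277, and the next was TBGR CD122- cells at 211.

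The window upstream of the first Bcl2l11 start is shown for the same reason as that of Bcl2, from RefSeq on GRCm38.p6, chr2:128125788-128126037 on the plus strand. Capitals mark GTAAACA, letters that Foxo factors bind, and each GGGCGG.
Bcl2l11: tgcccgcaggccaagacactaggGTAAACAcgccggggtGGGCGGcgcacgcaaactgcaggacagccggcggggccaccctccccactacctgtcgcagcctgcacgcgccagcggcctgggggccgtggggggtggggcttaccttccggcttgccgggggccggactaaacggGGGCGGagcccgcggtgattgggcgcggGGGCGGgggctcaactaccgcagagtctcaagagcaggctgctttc
GTAAACA lies 227 bases before this start, and a second match lies 167 bases before the second start of Bbc3. Both strands were searched, and 3.17% of all windows hold it. GGGCGG is in 10 of the 18 member windows, which belong to 7 members, and in 32.7% of all windows, and TTCNNNGAA, letters that STAT factors bind, is in none of the 18 member windows and in 7.02% of all. The 4 motifs do not overlap each other at these matches.

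The other BH3-only members were sparse. Bbc3, the p53 target that encodes Puma, had 125 transcripts and was above 0 in 19 of 28 sums. It was highest in TBGR T-bet high cells, at 29.7 and 38.6 CPM, followed by TBGR CD122+ cells at 28.4 and 25.9, and the libraries of these neighbours did not overlap. In TBGR T-bet int cells Bbc3 stood at 18.2 and 6.32, below both. In the 2-week mice it reached at most 18.7 CPM.

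Bad, whose protein is held inactive by growth factor signals, had 105 transcripts and pooled levels of 4.94 to 24.1 CPM. Bid, which is cut by caspase-8 and links death receptors to mitochondria, had 236 transcripts, with pooled levels of 12.3 to 37.6. Its highest level was in C-myc fl/fl T-bet int cells, at 51.5, 33.5, 31.1 and 31.6 CPM. Every neighbour in the order of Bad overlapped with the next, and for Bid every one but C-myc D/DCd4 CD122+ cells, which lay above TBGR T-bet high cells at 25.4 and 29.9 against 21.2 and 21.4.

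Bmf, a BH3-only gene known from cells that lose attachment or cytokine support, had the fewest transcripts, 91. It stood at 18.1 and 33.2 CPM in TBGR CD122+ cells and at 2.07 and 8.05 in CD122- cells of that mouse. In C-myc D/DCd4 CD122+ cells Bmf was at 19.1 and 29.9, against 0, 4.45, 4.51 and 0 in C-myc fl/fl, on 18 and 2 transcripts. The libraries did not overlap, and the log2 ratio was 2.85 (1.07 to 6.28), but with fewer than 50 transcripts over both groups it was not tested. A count of 0 allows up to 13.8 CPM in C-myc fl/fl library 1 and 31.8 in library 4.

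Does the step from CD122- to CD122+, which follows agonist selection, shift the members? A gene was tested with at least 50 transcripts over both groups and called when its log2 ratio, set against the median of all tested genes, passed a 1.5-fold difference with libraries that did not overlap. In the TBGR mouse none of 7 tested members was called, beside 25.7% of 6531 genes tested, and the median gene was at 0.26. Bcl2 was at -0.21 (-0.36 to -0.06) against that median, Mcl1 at -0.27 (-0.47 to -0.07) and Bcl2l11 at -0.26 (-0.58 to 0.07). These 3 members thus held close to the same CPM, as 650 and 675 for Bcl2 show.

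In the C-myc fl/fl mouse none of 4 tested members was called in the CD122 step, beside 5.98% of 3662 genes, with the median gene at 0.52. Bcl2 was at 0.71 (0.41 to 1.02), past 1.5-fold but with libraries that overlapped. Within libraries 1 to 4, its log2 ratio of CD122+ over CD122- cells was 1.49, -0.26, 2.05 and 1.85, before it is set against the median. Library 2 alone had more Bcl2 in the CD122- cells. For Mcl1 the same ratios were 0.60, 0.49, 0.65 and 1.69, higher in the CD122+ cells of each library, where the median gene over all 4 libraries was at 0.52. The calls rest on libraries that do not overlap across the 2 populations and do not use this pairing. Without library 2, Bcl2 and Bcl2l11 were called and the count was 2, and without library 4, which stands apart, it was 0.

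In the C-myc D/DCd4 mouse 3 of 4 tested members were higher in the CD122+ cells and none lower, beside 37.6% of 4211 genes called, 880 higher and 704 lower. The median gene was at 0.10. Bcl2 rose by 2.14 on the log2 scale (1.92 to 2.37), a 4.41-fold difference, and by 1.01 in cells without cycling transcripts, where it was still called. Mcl1 rose by 1.07 (0.80 to 1.34) and Bcl2l11 by 0.87 (0.42 to 1.33). The effector Bax was tested and stood at 0.54 (-0.21 to 1.33), with libraries that overlapped. The Bcl2l11 call was lost without library 2 of the CD122- cells, at a 2-fold threshold, in cells without cycling transcripts (0.47) and with each cell thinned to 2000 transcripts (0.33). In each of these 4 the count was 2. Without library 1 of the CD122+ cells, and at a minimum of 1000 transcripts, Bax was called as well and the count was 4. Markers of other states moved in the same step. Those of CD4+CD8+ thymocytes summed to 783 CPM in CD122- cells, with all 9 detected and Dntt the most abundant, and to 135 in CD122+ cells, with Cd8a the most abundant and Rag2 and Ptcra at 0. In the TBGR mouse they summed to 731 (Cd4 the most abundant) and 139 (Rag1 and Rag2 at 0). Other lists also moved in this C-myc D/DCd4 step, with libraries that did not overlap. From CD122- to CD122+ cells, agonist-selected PD-1+ IELP markers went from 890 to 2859 CPM and mature T-bet+ IELP markers from 65.3 to 779. Regulatory T cell markers went from 67.9 to 191. Myeloid markers went from 45.7 to 260, of which Fcer1g was 187, with Csf1r and Itgax at 0 in both populations. NKT markers went from 502 to 310, of which Gata3 was 430 and 190, so the fall of this sum was in Gata3. Klrb1c and Il4 of that list were at 0 in CD122- cells and detected in CD122+ cells. The part of these states in the Bcl2, Mcl1 and Bcl2l11 differences was not tested.

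Does the loss of C-myc change the members in cells of the same gate? In CD122- cells none of 3 tested members was called in C-myc D/DCd4 over C-myc fl/fl, beside 12.6% of 3677 genes, with the median gene at 0.46. Bcl2 stood at 0.28 (-0.05 to 0.61), Mcl1 at 0.02 (-0.32 to 0.37) and Bcl2l11 at 0.12 (-0.44 to 0.70), all with overlap. The count was 1 without C-myc fl/fl library 2, where Bcl2 was called, and 1 without C-myc D/DCd4 library 2, where Bcl2l11 was called.

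In CD122+ cells 3 of 4 tested members were higher in C-myc D/DCd4 and none lower, beside 29.6% of 4201 genes called, 819 higher and 426 lower. The median gene was at 0.12. Bcl2 was higher by 1.62 on the log2 scale (1.43 to 1.82), or 3.08-fold. Mcl1 was higher by 0.77 (0.52 to 1.03) and Bcl2l11 by 0.76 (0.33 to 1.22). Of the 3 called, 2 are pro-survival and 1 is pro-death, and Bcl2 differed the most. In cells without cycling transcripts Mcl1 did, at 1.33 against 1.01 for Bcl2. The C-myc fl/fl side then held 14 cells, with 12 transcripts of Mcl1 and 35 of Bcl2, so the order of these members is not settled there. This comparison and the CD122 step of C-myc D/DCd4 share the same 2 libraries of CD122+ cells, so they are not independent.

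Without C-myc fl/fl library 4 the same 3 members were called, at 1.58, 0.79 and 0.87 for Bcl2, Mcl1 and Bcl2l11, beside 43.0% of 4065 genes. Without predicted and clone-named genes Bcl2 was 1947 and 2152 CPM in C-myc D/DCd4 against 554, 311, 853 and 356 in C-myc fl/fl, and the same 3 were called. The Bcl2l11 call was lost without C-myc fl/fl library 2, where the count was 2, at a minimum of 3000 transcripts and at a 2-fold threshold. It was also lost in cells without cycling transcripts, at 0.44. At 2-fold Bcl2 alone was called. Without C-myc D/DCd4 library 1 the effector Bax was called as well and the count was 4.

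**Figure D2:**
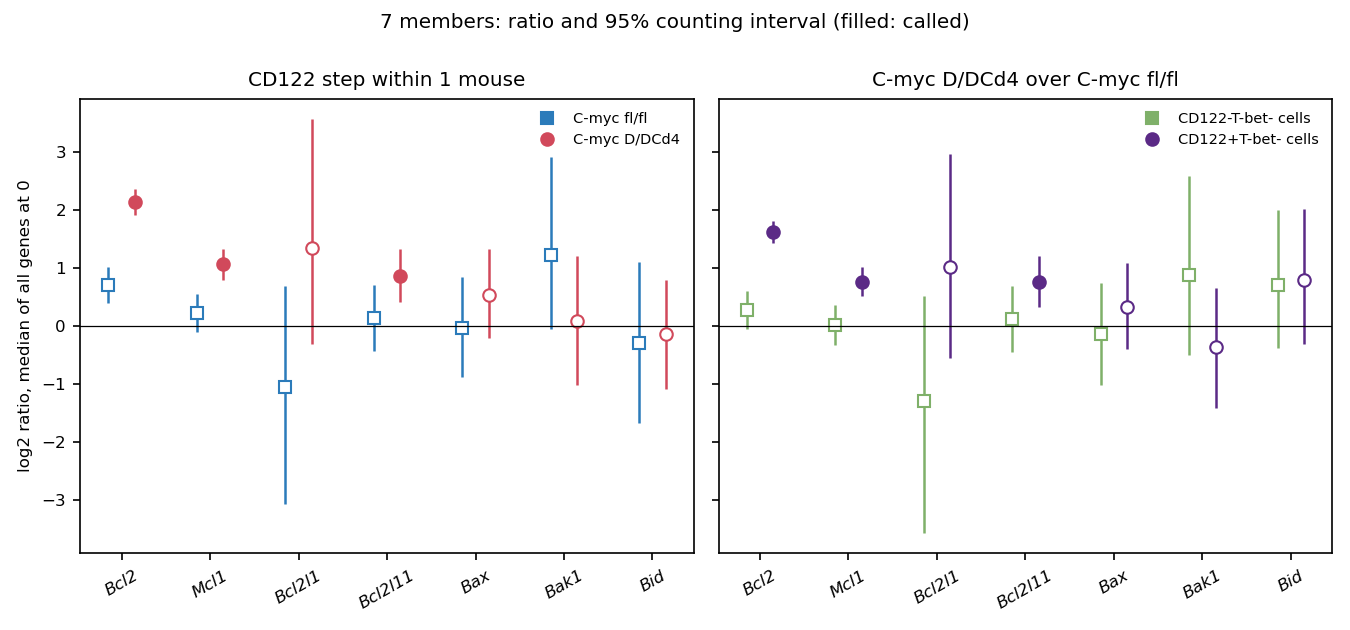
Log2 ratio of 7 members (horizontal axis) with the median of all genes at 0 (vertical axis), as points with 95% counting intervals, for the CD122 step within each 2-week mouse (left) and for C-myc D/DCd4 over C-myc fl/fl within each gate (right). Filled points are called, and Bcl2, Mcl1 and Bcl2l11 of C-myc D/DCd4 CD122+ cells are the filled ones.

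The plot of ratios shows the 2 comparisons side by side for Bcl2, Mcl1, Bcl2l1, Bcl2l11, Bax, Bak1 and Bid. Bak1 stood at -0.35 (-1.41 to 0.66) in CD122+ cells of C-myc D/DCd4 over C-myc fl/fl, Bid at 0.79 (-0.31 to 2.03) and Bcl2l1 at 1.02 (-0.54 to 2.97), none of them with enough transcripts to be tested. Whether the difference between the genotypes is itself larger in CD122+ than in CD122- cells was not tested.

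Does T-bet induction go with a shift of the members? From CD122+ to T-bet int cells of the TBGR mouse, 2 of 7 tested members were lower and none higher, beside 21.0% of 7063 genes called, with the median gene at 0.01. The effector Bak1 fell by 1.09 on the log2 scale, with a log2 ratio of -1.09 (-1.92 to -0.35), on 51 and 21 transcripts. The p53 target Bbc3 had a log2 ratio of -1.12 (-2.09 to -0.28), on 40 and 16 transcripts. Both reached the filter of 50 transcripts largely through the CD122+ cells, where they were higher, so the count of 2 depends on that group. For Bbc3 it was -1.98 without T-bet int library 1 and -0.43 in cells without cycling transcripts, and for Bak1 it ran from -1.77, in those cells, to -0.98. Bcl2 stood at -0.16 (-0.29 to -0.02). The count was 0 without either library of the CD122+ cells, where both fall under 50 transcripts, and 0 with cells thinned to 2000. Without T-bet int library 1 Bak1 and Bax were called, and without library 2 Bak1 and Bcl2l11. Marker lists moved in the same step, with libraries that did not overlap. Cycling markers summed to 1163 CPM in CD122+ cells and 2032 in T-bet int cells. Agonist-selected PD-1+ IELP markers fell from 2641 to 1760 and regulatory T cell markers from 146 to 58.8. Mature T-bet+ IELP markers rose from 517 to 1857 and myeloid markers from 319 to 446. The part of these in the Bak1 and Bbc3 differences was not tested.

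From T-bet int to T-bet high cells none of 5 tested members was called in the TBGR mouse, beside 32.9% of 5833 genes, and none of 5 in C-myc fl/fl, beside 6.65% of 3987. Bak1 and Bbc3, called in the step before, had too few transcripts to be tested in this step of the TBGR mouse. Bbc3 stood at 1.49 (0.52 to 2.52), on 16 and 23 transcripts, and Bak1 at 0.91 (-0.05 to 1.86), on 21 and 20. Both were higher in T-bet high cells, with libraries that did not overlap. Bcl2 of the TBGR mouse stood at 0.09 (-0.08 to 0.26) against a median gene at -0.11. In C-myc fl/fl Bcl2 stood at -0.07 (-0.38 to 0.24) against a median gene at -0.18, with within-library log2 ratios of 0.09, -0.54, -0.35 and 0.28. Both Bcl2 intervals hold 0, and the step from CD122+ into T-bet int cells was not compared in C-myc fl/fl.

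The balance is the number of transcripts of the 3 pro-survival members over that of the 7 pro-death members, a ratio of counts in the same cells that depth does not rescale. In the TBGR mouse it was 5.29 and 3.04 in CD122- cells, 2.89 and 3.73 in CD122+ cells, 4.19 and 3.10 in T-bet int cells and 4.28 and 2.97 in T-bet high cells. In C-myc fl/fl it was 2.13, 4.25, 3.48 and 1.06 in CD122- cells and 3.14, 2.82, 5.02 and 2.19 in CD122+ cells. Its T-bet int cells held 2.06, 3.41, 1.91 and 1.65, and its T-bet high cells 2.66, 2.80, 2.29 and 2.35. In C-myc D/DCd4 it was 2.52 and 2.58 in CD122- cells and 6.66 and 5.13 in CD122+ cells. The pro-survival arm held more transcripts in each of the 28 sums, and the 2 libraries of C-myc D/DCd4 CD122+ cells lay above those of both groups they are compared with.

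**Figure D3:**
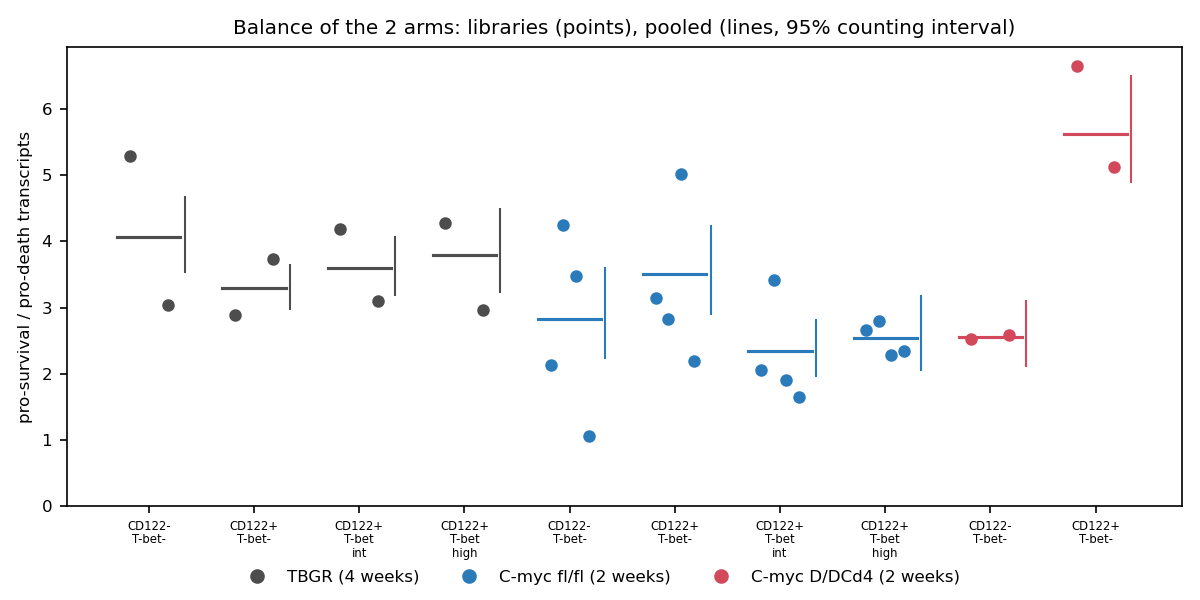
Pro-survival over pro-death transcripts (vertical axis) by mouse and population (horizontal axis), with libraries as points and the pooled balance as a line with its 95% counting interval beside it. C-myc D/DCd4 CD122+ cells stand at 5.63 pooled, and the other 9 groups between 2.35 and 4.06.

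As the plot of the balance shows, the pooled value of 5.63 (4.88 to 6.52) in C-myc D/DCd4 CD122+ cells compares with 3.50 (2.89 to 4.25) in C-myc fl/fl. The log2 ratio of the 2 was 0.69 (0.33 to 1.04), a 1.61-fold difference, and no libraries overlapped. In CD122- cells the balance was 2.55 and 2.83, with a log2 ratio of -0.15 (-0.60 to 0.31) and overlap, and 0.13 without C-myc fl/fl library 2, so its direction depends on 1 library. Within C-myc D/DCd4 the CD122 step was at 1.14 (0.78 to 1.49), or 2.20-fold, with no overlap.

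In the same step the C-myc fl/fl mouse was at 0.31 (-0.15 to 0.76) and the TBGR mouse at -0.30 (-0.56 to -0.05), both with overlap, so the balance went opposite ways in the pooled values of these 2 mice. The sign depends on 1 library in the TBGR mouse: the log2 ratio was 0.12 without CD122- library 1 and -0.69 without library 2. T-bet int over CD122+ cells was at 0.13 (-0.11 to 0.36) in the TBGR mouse, T-bet high over int at 0.08 (-0.22 to 0.38), and at 0.11 (-0.31 to 0.54) in C-myc fl/fl. Each of these 3 also had overlap. Both TBGR ratios also depend on 1 library for their sign. The ratio into T-bet int cells was -0.09 without T-bet int library 1 and -0.05 without CD122+ library 1, and the ratio into T-bet high cells -0.28 without T-bet high library 1 and -0.14 without T-bet int library 2.

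The high balance of C-myc D/DCd4 CD122+ cells rests on Bcl2. Bcl2 made up 71.4% of their pro-survival transcripts, against 58.2% in C-myc fl/fl, and 7.54 Bcl2 transcripts were counted for each of Bcl2l11, against 4.16. Without Bcl2 the balance was 1.61 against 1.46, a log2 ratio of 0.14, and 0.47 in the CD122 step of C-myc D/DCd4. Without C-myc fl/fl library 4 the balance ratio was 0.62, and without predicted and clone-named genes 0.63.

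Summed by arm, the pro-survival members were at a log2 ratio of 1.33 (1.18 to 1.48) in C-myc D/DCd4 over C-myc fl/fl CD122+ cells, from 642 to 1753 CPM. The 7 pro-death members were at 0.64 (0.33 to 0.96), from 184 to 311 CPM, and at 0.51 (0.06 to 0.97) without Bcl2l11. The balance thus differs because Bcl2 stands further from C-myc fl/fl than the pro-death members do, not because the pro-death members are lower.

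Cell by cell, each passing cell was thinned at random to 2000 transcripts, so that the total is equal. The predicted and clone-named genes are part of that total, so the depth left for other genes still differs between groups. The pro-survival arm held more transcripts in 85.4% (78.4% to 90.8%) of 137 C-myc D/DCd4 CD122+ cells, and in 57.4% (48.1% to 66.3%) of 122 C-myc fl/fl cells of that gate. In CD122- cells it did so in 48.4% of 128 and 39.2% of 120. The TBGR populations lay between 61.5% and 69.6%. The pro-death arm held more in 4.38% of the C-myc D/DCd4 CD122+ cells and in 7.38% of the C-myc fl/fl cells, so most of the difference is in cells with no transcript of either arm, at 5.11% against 26.2%.

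**Figure D4:**
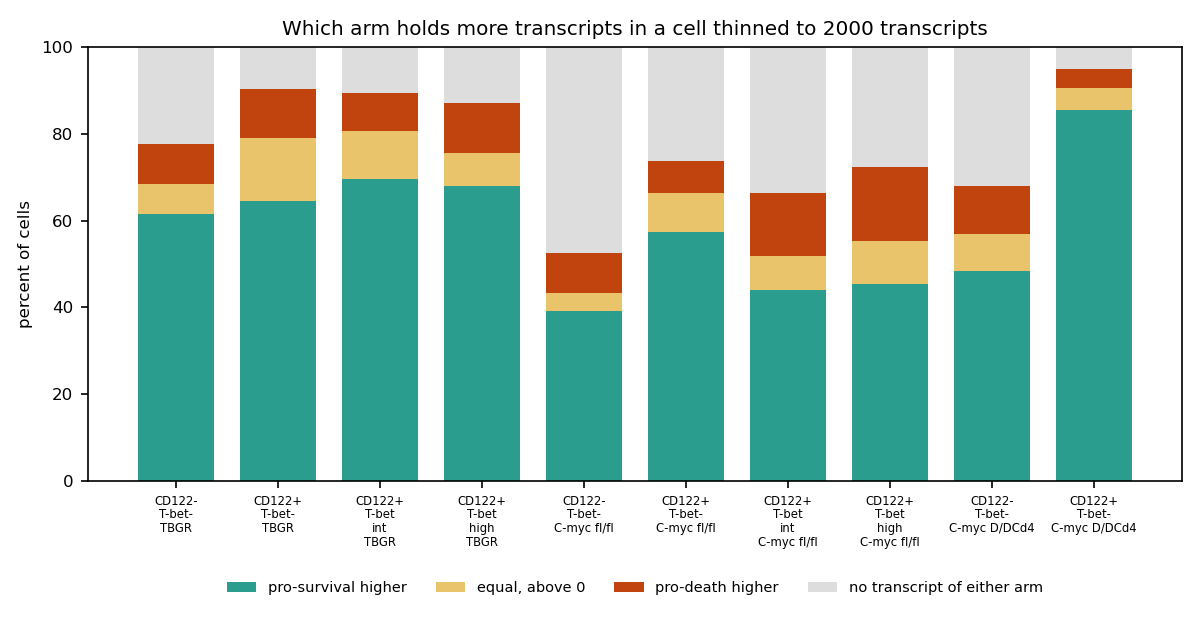
Percent of cells (vertical axis) in which a cell thinned to 2000 transcripts held more pro-survival, equal, more pro-death or no family transcripts, stacked by mouse and population (horizontal axis). Cells with more pro-survival transcripts make up 85.4% of C-myc D/DCd4 CD122+ cells and 39.2% to 69.6% of the other groups.

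The plot of cells by arm reflects how often Bcl2 was detected. After thinning, Bcl2 was found in 74.5% (66.3% to 81.5%) of C-myc D/DCd4 CD122+ cells, with a median of 2 transcripts a cell, and in 39.3% (30.6% to 48.6%) of C-myc fl/fl cells, with a median of 0. Mcl1 was found in 62.8% and 42.6% of these cells and Bcl2l11 in 22.6% and 12.3%. Bcl2 was thus found in most cells of the C-myc D/DCd4 gate at this depth. Cells of 1 library share a mouse and a sort, so these intervals do not cover differences between mice.

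Cycling markers also differed between the groups compared. The 8 markers, all detected in each of the 10 groups, summed to 470 CPM in C-myc D/DCd4 CD122+ cells (Mcm5 the most abundant), 1714 in C-myc fl/fl CD122+ cells (Top2a) and 2545 in C-myc D/DCd4 CD122- cells (Mki67). The part of cycling in the Bcl2 differences was not tested. Cells with and without a cycling transcript after thinning were therefore compared, on totals without predicted and clone-named genes, a split chosen after seeing the data. Bcl2 was higher in the cells without such a transcript in 9 of the 10 groups, but the intervals overlapped in 4 of the 9, namely T-bet int and high cells of the TBGR mouse and CD122+ and T-bet int cells of C-myc fl/fl. The exception was C-myc D/DCd4 CD122+ cells, at 2197 CPM with and 1900 without. Their counting intervals overlapped, but their libraries did not, at 2174 to 2231 with and 1539 to 2124 without.

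Among cells with a cycling transcript, Bcl2 stood at 2197 CPM (2013 to 2394) in C-myc D/DCd4 CD122+ cells and 541 (473 to 616) in C-myc fl/fl, on 63 and 83 cells. Among cells without one it stood at 1900 (1702 to 2115) and 805 (561 to 1120), on 53 and 14 cells. The 14 cells held 35 transcripts of Bcl2, with 0 to 1103 CPM in the libraries, and 12 of Mcl1, with 0 to 457 CPM. A cell without a marker transcript at this depth may still cycle. The balance was 5.27 against 3.50 with a cycling transcript and 6.02 against 4.36 without. Set against the median gene, in cells without a cycling transcript Bcl2 was at 1.01 and Mcl1 at 1.33, both called, and Bcl2l11 was not, at 0.44.

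**Figure D5:**
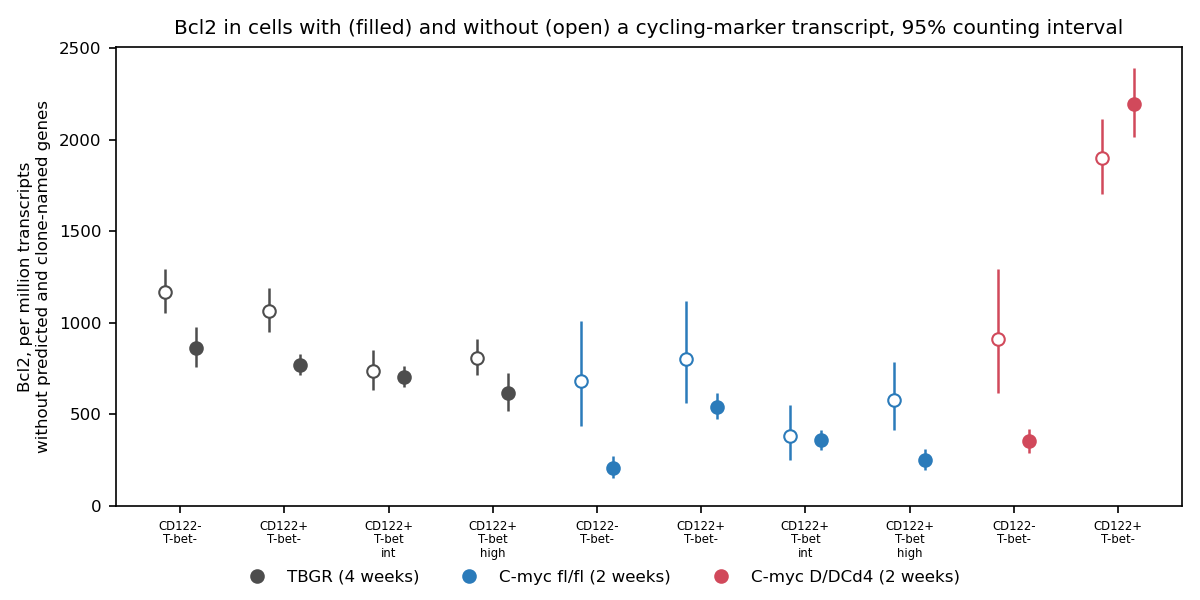
Bcl2 in CPM without predicted and clone-named genes (vertical axis) by mouse and population (horizontal axis), in cells with (filled) and without (open) a transcript of 8 cycling markers, with 95% counting intervals. Open points lie above filled ones in 9 groups, with overlapping counting intervals in 4 of these. They lie below in C-myc D/DCd4 CD122+ cells, which are the highest of both kinds. By library, the 9 groups overlapped in all but TBGR T-bet high and C-myc D/DCd4 CD122- cells.

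The plot of Bcl2 by cycling state holds few open cells in the 2-week groups, 12 to 20 in each but C-myc D/DCd4 CD122+ cells. Other marker lists also differed between C-myc D/DCd4 and C-myc fl/fl CD122+ cells. The αβ T cell list, that of the sorted cells, summed to 4940 CPM (4224 and 5501 in the libraries) against 3731 (2249 to 4200). The γδ T cell list, 6 of 7 genes in the files and all 6 detected, summed to 1143 against 527 CPM, with Tcrg-C1 the most abundant in both. The list of agonist-selected PD-1+ IELPs, all 6 detected, summed to 2859 against 1657, with Ikzf2 the most abundant. CD4+CD8+ thymocyte markers summed to 135 against 44.9, with Rag1, Rag2 and Dntt at 0 in C-myc fl/fl. The regulatory T cell list, all 4 detected, summed to 191 against 81.9 (Tnfrsf18 the most abundant), and the NKT list, all 6 detected, to 310 against 145, with Gata3 at 190 and 76.6 of these. A further list was also higher in C-myc D/DCd4, with libraries that overlapped, and its values are left out here. The list of mature T-bet+ IELPs, all 10 detected, summed to 779 (750 and 802 in the libraries, Id2 the most abundant) against 462 (276 to 632, Il2rb). The myeloid list, 6 of 7 genes in the files, summed to 260 against 202, with libraries that overlap, Fcer1g the most abundant and Csf1r and Itgax at 0 in both. The sort selected cells with the αβ T cell receptor and without CD4 and CD8. The part of these lists in the levels of Bcl2 and Mcl1 was not tested.

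Among 86 genes around the family in 10 lists, 82 are in the files. In C-myc D/DCd4 over C-myc fl/fl CD122+ cells 14 were higher and 3 lower of 45 tested, beside 29.6% of all 4201 genes called, with a median of 0.28. The lists as such were not tested. The inhibitor of apoptosis Birc5, also a mitosis gene, was at a log2 ratio of -3.13, while the inhibitors Birc2 and Xiap were at 2.09 and 1.33. Nr4a3 and Nr4a2, orphan receptors induced by the T cell receptor and tied to thymocyte death, were at 2.74 and 1.46, within a list where 3 of 6 tested were higher. The p53 target Trp53inp1 was at 1.67, the kinase gene Pim2 at 1.48 and Tnfsf10, the gene of the death ligand TRAIL, at 1.32.

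In the CD122 step of C-myc D/DCd4, 18 were higher and 6 lower of 44 tested, beside 37.6% of all 4211 genes called, with a median of 0.29. The T cell receptor response list was higher in 6 of 6 tested, with a median of 1.94, and among its genes Nr4a2 was at 3.86, Egr2 at 2.27 and Nr4a3 at 2.23. The list of Foxo factors and cytokine inputs was higher in 7 of 9, with Il2rb, the gate's own gene, Pim2 at 3.70 and Foxo1 at 2.00. Tnfsf10 was at 3.23 and Birc5 at -3.55. Foxo1 is known as an activator of Bcl2l11. Its own role in the level of Bcl2l11 was not tested.

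Over the 10 combinations of mouse and population, the genes whose log2 level followed that of Bcl2 most closely, of 5870 with at least 200 transcripts, were Mcl1 (Pearson r of 0.99), Dgkd and Zkscan3 (0.97), and Col4a3bp and Tigd2 (0.96). Bcl2l11 was followed most closely by March7, Gtdc1, Cbarp and Kdm7a (0.96) and Mga (0.95), and its correlation with Bcl2 was 0.92. Bax correlated with Bcl2 at 0.61, Bak1 at 0.48 and Bid at 0.21. The 10 points share mice, libraries and the share of predicted genes in the total, so these values are descriptions of pattern.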

How the data were processed

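The authors sorted single cells into CEL-Seq2 libraries, made reads with bcl2fastq 2.17.1.14 and aligned them with BWA 0.6.2-r126 to GENCODE mouse transcripts. The deposited tables hold expected transcript counts per gene and cell, which the authors corrected for UMIs of 6 bases drawn more than once. The deposited description of each library gives the sorted population of each well. Values were rounded to whole transcripts, cells with at least 2000 transcripts without mitochondrial genes and spike-ins were kept, and counts were summed by population and library (94268 to 775264 transcripts). Log2 ratios used 0.5 added transcripts and the median of genes with at least 50 transcripts over both groups as 0. A call needed a 1.5-fold difference and libraries without overlap. Intervals are exact conditional (ratios) or Clopper-Pearson (shares) and the floor is 3 counts.

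The 10 members were always named. Of the wider lists at most 8 called genes per comparison were named, largest log2 ratio first. The genes most like Bcl2 and Bcl2l11 were the 5 with the highest Pearson correlation of log2(CPM + 10). The members and lists were chosen with earlier results of these data known. Promoters were matched by symbol to RefSeq (GRCm38.p6), and all 10 members matched. Python 3.11.15, NumPy 2.4.6, SciPy 1.17.1, pandas 2.3.3 and Matplotlib 3.10.9 were used. The steps were tested on data simulated with counting error only, which does not show how calls behave when libraries of a population differ. Alternatives changed the minimum, depth, UMI correction, total, added count, fold, filter, Kcnq1ot1 limit, members in the balance and libraries. Barcodes without a cell entered no comparison.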

Additional observations from a re-analysis of the deposited data

Results flagged for a closer look

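In groups of 4 libraries, the highest or lowest library was set against the others, and 2 of 44 groups had one marked by this comparison. Chance does this in about 1 in 20 groups. Bbc3 in C-myc fl/fl CD122- cells stood at 4.85 CPM in library 1, on 1 transcript, against 0 in the other 3. Bid in C-myc fl/fl T-bet int cells stood at 51.5 CPM in library 1, on 12 transcripts, against 31.1 to 33.5 in the other 3, which lie within its counting interval of 26.6 to 89.9.

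A signal also appeared in data that no comparison uses. The 1920 barcodes without a cell held 51080 transcripts, or 0.565% of those in passing cells. Of these, 39 were of Bcl2, above the 3 that a count of 0 allows, and equal to 0.826% of its transcripts in cells. Mcl1 had 24 such transcripts and Bcl2l11 had 6. The other 7 members had at most 3 each.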

How the results depend on the processing

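The balance ratios, counts of called members and member ratios were recomputed under the alternatives that apply to them. Cell shares, arm sums, wider lists, correlations and Myc were not. Of 108 balance ratios 99 stayed within the 95% interval of the reported value, as did 1026 of 1080 member ratios, and of 132 counts of members 115 stayed within 1.5 times the reported count. These tallies include the Kcnq1ot1 limit of 2%, which no passing cell exceeded, so its values are unchanged by construction. No called value changed sign. The cause was not tested for any value below, except that a filter of 10 transcripts tests more genes, and thinning or leaving out a library leaves fewer transcripts.

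With the filter of 10 transcripts the count was 3 in the TBGR CD122 step (Bcl2l1, Bad and Bmf), 4 from CD122+ to T-bet int, 4 from T-bet int to high in the TBGR mouse, 1 in CD122- cells of C-myc D/DCd4 over C-myc fl/fl (Bak1) and 6 in CD122+ cells (Bcl2, Mcl1, Bcl2l1, Bcl2l11, Bid and Bmf). Not set against the median, it was 1 (Bid) in the TBGR CD122 step and 1 (Bid) from T-bet int to high. Thinned to 2000 transcripts, it was 0 from CD122+ to T-bet int and 1 (Bcl2) in CD122- cells between genotypes. With a fold of 2 it was 1 (Bcl2) in CD122+ cells between genotypes. Balance ratios without Bcl2 were 0.14 in CD122+ cells between genotypes and 0.47 in the C-myc D/DCd4 CD122 step, which was 1.52 without Mcl1. In cells without cycling transcripts, chosen after seeing the data, they were -0.18 from CD122+ to T-bet int and 0.54 from int to high in the TBGR mouse, and 0.68 from int to high in C-myc fl/fl, and the count to T-bet int was 0. Also chosen after seeing the data, leaving out predicted and clone-named genes kept all 8 counts.

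Leaving out each library in turn, the balance ratio ran from -0.69 to 0.12 in the TBGR CD122 step, -0.09 to 0.35 to T-bet int, -0.28 to 0.29 to T-bet high, 0.13 to 0.69 in the C-myc fl/fl CD122 step, 0.01 to 0.37 to its T-bet high cells, 1.01 to 1.38 in the C-myc D/DCd4 CD122 step, and between genotypes -0.32 to 0.13 in CD122- and 0.55 to 0.98 in CD122+ cells. The counts, in the same order, ran from 0 to 1, 0 to 2, 0 to 0, 0 to 2, 0 to 0, 2 to 4, 0 to 1 and 2 to 4. Over all alternatives, Bcl2 in CD122+ cells between genotypes ran from 1.01 to 1.98, Mcl1 from 0.65 to 1.33 and Bcl2l11 from 0.44 to 1.01. In the C-myc D/DCd4 CD122 step Bcl2 ran from 1.01, in cells without cycling transcripts, to 2.30, Mcl1 from 0.83 to 1.23 and Bcl2l11 from 0.33 to 1.19.

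No paired analysis was possible between genotypes because their cells are in different libraries and mice. With the libraries read as 1 mouse a genotype, nothing here separates genotype from mouse. Depth limits Bcl2l1, Bbc3, Bad and Bmf, with 91 to 125 transcripts each over 1413 cells.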

Other observations

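Among the genes around the family, 11 of 60 tested were higher and 6 lower in the CD122 step of the TBGR mouse, beside 25.7% of all genes called. Apart from Il2rb at a log2 ratio of 4.87, Tnfsf10 was at 2.17, Nr4a2 at 1.69, Bag4 at 1.44 and Egr2 at 1.28, while Tnfrsf1a was at -1.86 and Nr4a3 at -1.39. Birc5 stood at 38.1 CPM in the CD122+ cells and at 0 of 980381 transcripts in the CD122- cells. Into T-bet int cells 4 of 59 were higher and 9 lower, beside 21.0% of all genes, with 6 of 7 tested genes of the T cell receptor response list lower and a median of -1.48. Nr4a3 was at -2.73, Gadd45b at -1.75, Il4ra at -1.60, Nr4a1 at -1.51, Egr2 at -1.48 and Btrc at -1.02, while Birc5 was at 1.61 and Tnfsf10 at 1.18.

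In the TBGR mouse, from T-bet int to T-bet high, 9 of 53 were higher and 12 lower, beside 32.9% of all genes. Fasl, the gene of the death ligand, was at 5.13, Il7r at 1.99 and Il4ra at 1.52, while Nr4a2 was at -3.94, Birc5 at -3.37, Nr4a1 at -2.84, Pim2 at -1.89 and Fbxw7, which marks Mcl-1 for turnover, at -1.74. Bcl2a1a, a pro-survival relative of Bcl2 named after its values were seen, had 45.4 CPM in T-bet high cells, 18.6 before that stage, and 1.39 as its log2 ratio (0.59 to 2.22). In C-myc fl/fl it went the other way, from 15.3 to 5.72 CPM, on 13 and 4 transcripts. In C-myc fl/fl 4 of 37 were higher in the CD122 step, beside 5.98% of all genes, Il2rb at 3.90, Nr4a2 at 2.38, Pim2 at 1.90 and Nr4a1 at 1.21. Into its T-bet high cells 1 of 37 was higher and 2 lower, beside 6.65% of all genes. Trp53inp1 was at 1.30, Casp2 at -0.95 and Nr4a2 at -0.82. In CD122- cells of C-myc D/DCd4 over C-myc fl/fl 3 of 33 were higher, beside 12.6% of all genes, Nr4a1 at 0.78, Trp53inp1 at 0.67 and Dynll2 at 0.61.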
